A study of Saccharomyces cerevisiae with 1245 samples.

Results

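The a-specific genes of budding yeast are those that haploid cells of mating type a express and cells of mating type alpha do not. The promoters of 7 of them were examined: STE2, STE6, MFA1, MFA2, BAR1, ASG7 and AGA2. They were chosen by name, as 7 of the 6002 nuclear coding promoters, and a promoter was taken as the stretch that begins 700 bp before the coding start and ends 100 bp past it. All 7 were found in the R64 annotation. The data are ChIP-exo peak lists of Saccharomyces cerevisiae, in which an exonuclease trims the precipitated DNA up to the crosslinked protein, so that each peak is a 1 bp position. Of 1245 samples, 1156 had a list, and 1115 libraries of 716 targets without heat shock entered the tables. Another 22 ChIP-exo libraries were from cells heat shocked for 3 or 6 min, and 18 lists came from MNase-ChIP-seq of histones and histone marks.

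The labels give all cultures as grown in YPD, a rich medium, and crosslinked with formaldehyde, and name no pheromone treatment. Most targets carried a TAP tag (1035 libraries). The others were labelled with an HA tag or with another antibody. Some of these antibodies were named for more than 1 target, and the labels do not say what each one recognised. A strain is named only for the 15 untagged samples, BY4741, which is a haploid of mating type a. The labels do not give the mating type of the tagged strains, nor whether numbered libraries of a target came from separate cultures, so agreement between libraries may be technical. There were 364 targets and antibodies with 1 library, 371 with 2 and 3 with 3. Lists held between 1 and 7062 peaks, with a median of 79, and none of the untagged samples had a list. The read depth behind a list is not known, so the lack of a peak does not show that the protein was absent.

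In cells of mating type a, the MADS-box protein Mcm1 activates the a-specific genes, whose products make and export a-factor and receive alpha-factor from the partner. In alpha cells the homeodomain protein Matalpha2 binds next to Mcm1 at these promoters and recruits the Tup1-Cyc8 corepressor, which keeps the genes off. Pheromone acts through a G protein and a kinase cascade on Ste12, a transcription factor that the repressor Dig1 holds in check and that works with Kar4 and Mcm1 at mating genes. At the core promoter, TBP (Spt15), TFIIB (Sua7) and the other general factors assemble with RNA polymerase II into the pre-initiation complex.

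The 7 promoters together held 616 peaks, from 236 libraries and 152 targets as labelled. The labels Ncb2 and Ydr1 are names of the same gene; counted as 1 target they leave 151, with 67 in place of 68 at STE6 and 27 in place of 28 at MFA1. Of the 152 targets, 98 lay at exactly 1 of the 7 promoters and 33 at 3 or more. Mcm1 lay at 6 of 7, upstream of the pre-initiation complex, while Matalpha2 lay at 2 of 7 in 1 of its 2 libraries. The pre-initiation complex occupied the same 6 promoters, and ASG7 differed from them in both respects. The map of regulator peaks shows these places, as distances from the coding start with upstream negative.

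**Figure D1:**
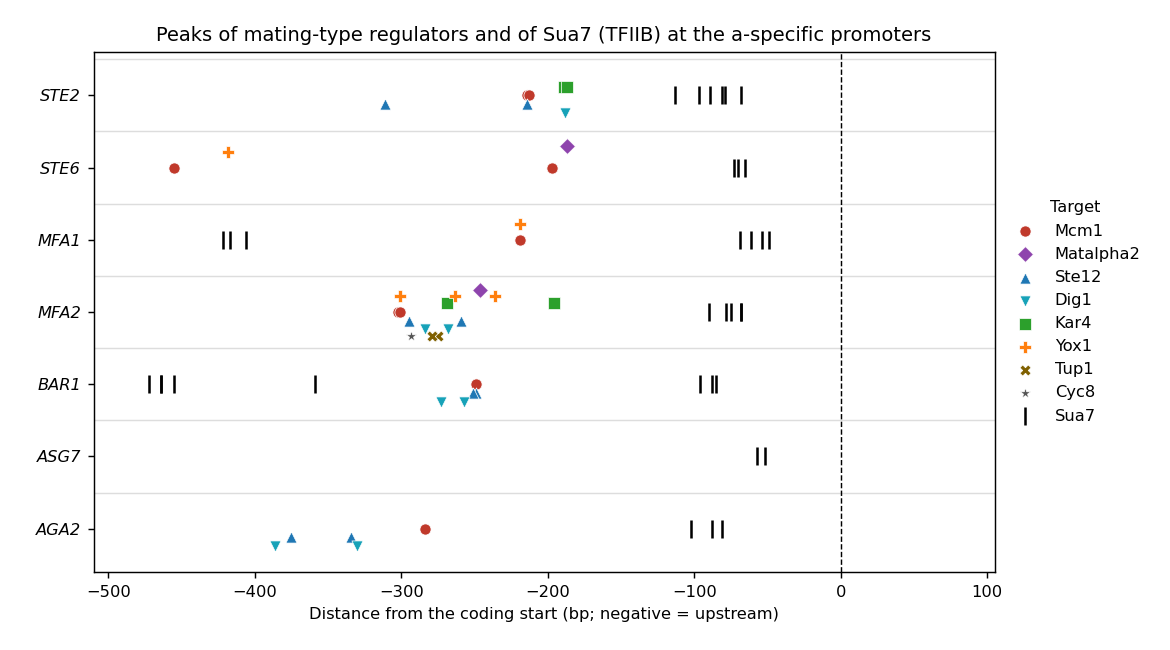
Positions of the peaks of 8 regulators and of Sua7 at the 7 a-specific promoters, in bp from the coding start (dashed line), with 1 symbol per peak and all libraries without heat shock shown; peaks further upstream than the axis are left out. Mcm1 (red circles) lay from -197 to -302 at 6 promoters, with 1 further peak at STE6, and Sua7 (black bars) lay nearest the coding start at all 7.

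STE2 encodes the receptor for alpha-factor and lies on chromosome VI from 82580 to 83875 on the plus strand (YFL026W); 32 targets had a peak in its promoter window. STE6 encodes the ATP-dependent transporter that exports a-factor and lies on chromosome XI from 42423 to 46295 on the minus strand (YKL209C), with 68 targets. MFA1, on chromosome IV from 1385176 to 1385286 on the plus strand (YDR461W), encodes an a-factor precursor and had 28 targets. The a-factor precursor gene MFA2, on chromosome XIV from 352414 to 352530 on the plus strand (YNL145W), had the most targets, 83.

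BAR1 encodes the secreted protease that degrades alpha-factor and lies on chromosome IX from 322342 to 324105 on the plus strand (YIL015W), with 34 targets. AGA2 encodes the adhesion subunit of a-agglutinin, on chromosome VII from 436570 to 436833 on the minus strand (YGL032C), with 55 targets. ASG7, on chromosome X from 101150 to 101779 on the minus strand (YJL170C), encodes a regulator of the G protein beta subunit and had the fewest, 4. The members thus ran from 4 to 83 targets with a median of 34, against a median of 14 over all promoters, where the 25th and 75th percentiles were 6 and 27.

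The 4 alpha-specific promoters, examined in the same way, stood below the a-specific ones: STE3, the a-factor receptor gene, had 4 targets, MF(ALPHA)2, an alpha-factor gene, had 3, and the other alpha-factor gene MF(ALPHA)1 and the agglutinin gene SAG1 had 0. Only ASG7 among the a-specific promoters overlapped that range. The 18 genes of the pheromone pathway that act in both haploid types lay between, with a median of 19 and a range from 1 at STE11, a kinase gene, to 49 at GPA1, the G protein alpha subunit gene. At STE6, AGA2 and BAR1 part of the targets lay over or next to neighbouring genes inside the window, as set out further down.

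**Figure D2:**
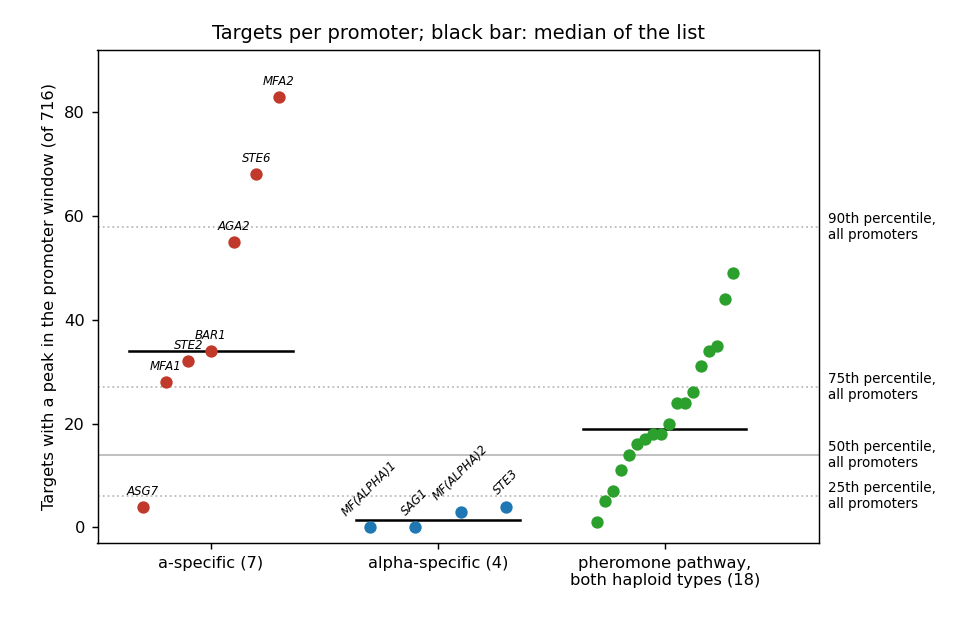
Number of targets (of 716) with at least 1 peak in each promoter window, for the 7 a-specific, 4 alpha-specific and 18 pathway genes; 1 point is 1 promoter, black bars are list medians (34, 1.5 and 19), and grey lines are percentiles over all 6002 promoters. The a-specific points except ASG7 lie above the 75th percentile of 27 (MFA1, at 28, would lie on it with Ncb2 and Ydr1 counted as 1 target), and all alpha-specific points lie below the 25th percentile of 6.

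Mcm1 had 730 peaks in replicate 1 and 96 in replicate 2. It lay at 6 of 7 a-specific promoters, against 7.83% of all coding promoters. At STE2 the peaks were at -214 and -213, at STE6 at -197 in both libraries, and at MFA1 at -219 in both. The MFA2 peaks were at -302 and -301, and the BAR1 peaks at -249 in both. The 2 libraries therefore placed Mcm1 within 1 bp of each other at each of these 5 promoters. At AGA2 a peak at -284 was found in replicate 1 only, and ASG7 had none, its nearest Mcm1 peak being at -14175. The replicate 2 library, with 96 peaks, reached 1.95% of all promoters and 5 of the 7.

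Scores are those of the authors' lists and rank peaks within a library only; a score of 1000 is the highest seen and was shared by 140 of 730 Mcm1 peaks in replicate 1. In that library STE2, STE6, MFA1 and MFA2 were among those 140, BAR1 stood at 975 (rank 142) and AGA2 at 655 (rank 185). In replicate 2, of 96 peaks, MFA2 ranked 18, STE6 ranked 63, STE2 ranked 68, BAR1 ranked 80 and MFA1 ranked 92. MFA2 was the only a-specific promoter in the upper part of that list. STE6 carried a further replicate 1 peak at -455, of score 462. Just outside the windows, replicate 1 had a peak of score 74 in the STE2 coding sequence and one of score 68 at +116 of MFA2, the end of its short coding sequence.

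Matalpha2 had 13 peaks in replicate 1 and 28 in replicate 2. It lay at 2 of 7 a-specific promoters, against 0.383% of all coding promoters, and both peaks came from replicate 2. At STE6 its peak was at -187, 10 bp downstream of Mcm1, with a score of 117 (rank 19 of 28). At MFA2 it was at -246, 55.5 bp downstream of the mean Mcm1 position, with a score of 125 (rank 17 of 28). Replicate 1, which reached 0.2% of all promoters, lay at 0 of 7. Neither library had a peak at STE2, MFA1, BAR1, ASG7 or AGA2, nor at any of the 4 alpha-specific promoters. The peaks of highest score lay elsewhere. At GPA1, a gene expressed in both haploid types, the peaks were at -347 and -348 and both scored 1000.

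Among the 18 pathway genes Matalpha2 also lay at FAR1, which encodes the inhibitor of the cell cycle kinase, at -284 in both libraries (scores 93 and 498). The G protein gamma subunit gene STE18 had peaks at -91 and -88 (scores 73 and 401), and the beta subunit gene STE4 had 1 at -508 in replicate 2 (score 212). So replicate 1 named 3 pathway genes and no a-specific gene, and replicate 2 named 4 pathway and 2 a-specific genes. The tagged strain's mating type is not in the labels. A single further sample, of Hmlalpha2, had no list and was not analysed here.

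Ste12 had 202 and 128 peaks and lay at 4 of 7 a-specific promoters in both libraries, against 2.67% of all coding promoters. At BAR1 its peaks were at -249 and -251, 0 and 2 bp from Mcm1. At STE2 it was at -214 in replicate 1, on the Mcm1 peak, and at -311 in replicate 2, where it ranked 127 of 128. At MFA2 the peaks were at -295 and -259, both of score 1000. At AGA2 they were at -334 and -375, with scores of 922 and 759, which is 50 and 91 bp upstream of Mcm1. MFA2 and AGA2 thus carried the higher Ste12 scores of the 4, and STE6, MFA1 and ASG7 had no Ste12 peak.

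Dig1, the repressor of Ste12, had 88 and 560 peaks and lay at the same 4 of 7 promoters as Ste12, against 2.08% of all. Its peaks were at -268 and -284 at MFA2, at -257 and -273 at BAR1, and at -330 and -386 at AGA2. At STE2 it had a peak in replicate 2 only, at -188. The AGA2 peaks reached the top score of 1000 in both libraries, and stood 4 and 11 bp from the Ste12 peaks of the same replicate number. Kar4, the partner of Ste12, had 135 peaks in each library and lay at 2 of 7, STE2 and MFA2, against 1.83% of all. At STE2 it was at -189 and -187, about 25 bp downstream of Mcm1. At MFA2 both libraries had a peak at -196, with scores of 80 and 127, and replicate 2 another at -269. The pathway kinase Kss1 and the transcription factor Tec1 had 12 peaks each, and the kinase Fus3 had 1. They lay at 0 of 7 a-specific promoters, against 0.15% of all promoters for Kss1, 0.1% for Tec1 and 0.05% for Fus3.

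The same regulators also lay at pathway genes. Ste12 lay at 6 of 18 in both libraries: AGA1, which encodes the anchor subunit of a-agglutinin, FUS1, a cell fusion gene, FUS3, GPA1, SST2, which encodes a GTPase activator, and STE12 itself. Dig1 lay at 5 of these 6 in replicate 1 and at all 6 in replicate 2, and Kar4 at 5 of 18, which were AGA1, FAR1, FUS1, FUS3 and STE12. Mcm1 lay at 2 of 18, FAR1 and GPA1, both in replicate 1, against 7.83% of all promoters. None of these 4 proteins had a peak at an alpha-specific promoter. Ste12, Dig1 and Kar4 lay at 2.67%, 2.08% and 1.83% of all promoters. With shares this small, the lack of peaks at so few alpha-specific promoters does not set them apart from other promoters. The pairing of Mcm1 with Ste12 also occurred widely: 98 promoters had both, which is 20.9% of the 470 Mcm1 promoters and 61.3% of the 160 Ste12 promoters.

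Partners of Mcm1 from the cell cycle were also seen. The homeodomain repressor Yox1 had lists of 319, 15 and 281 peaks and lay at 3 of 7 a-specific promoters, against 4.6% of all. At MFA2 all 3 libraries had it, at -301 in replicates 1 and 3, within 1 bp of Mcm1, and at -263 in replicate 2; replicate 3 had another peak at -236. At MFA1 replicate 3 placed it at -219, on the Mcm1 position, with a score of 112. At STE6 replicate 3 had a peak at -418. Of the 276 Yox1 promoters, 75% also had Mcm1, and of the 470 Mcm1 promoters 44.0% also had Yox1. The forkhead proteins lay at MFA2 only: Fkh1 at -377 and -372, against 9.78% of all promoters, and Fkh2 at -228 in replicate 2, against 3.73%. For Fkh1, 1 of 7 is near its share of all promoters. Its peaks scored 88 (rank 909 of 1037) and 127 (rank 436 of 625), at -75.5 and -70.5 bp from the mean Mcm1 position. The activator Ndd1, the Yox1 relative Yhp1 and the activator Swi5 lay at 0 of 7, against 1.08%, 0.0167% and 0.733% of all promoters.

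The corepressor Tup1-Cyc8 lay at 1 of 7, MFA2. Tup1 was there at -275 and -279, against 6.26% of all promoters, with scores of 1000 and 793, and Cyc8 at -293 in replicate 2 only, against 5.16%. STE6, the other promoter with a Matalpha2 peak, had neither. Of 25 targets from histone deacetylase complexes, Hda1 had a peak at STE2, at +90 in 1 library with a score of 70, Hos2 at AGA2 at -681, and Sum1 at ASG7 at -59. These 3 lay at 4.7%, 1.8% and 6% of all promoters, in the order named, and 18% of all promoters had at least 1 of the 25. The remaining a-specific promoters had none.

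**Figure D3:**
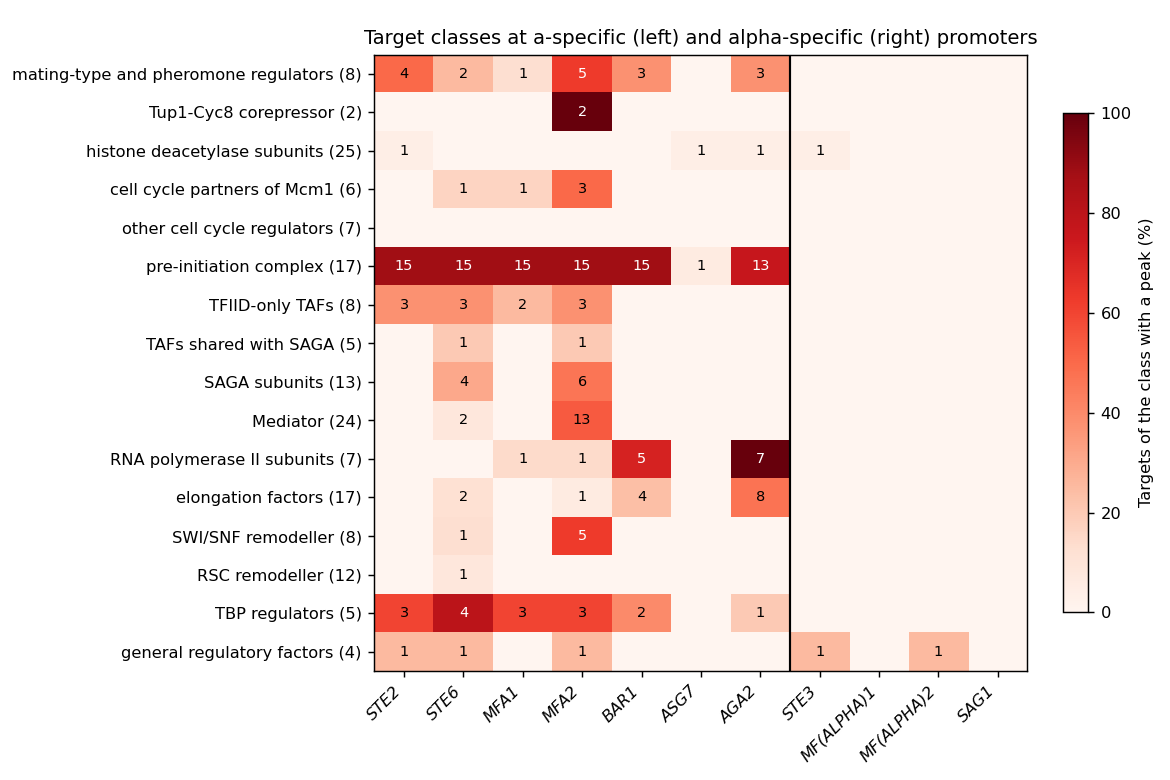
Share of each target class (rows, with the number of targets in brackets) that had a peak at each a-specific promoter (left of the line) and alpha-specific promoter (right of it); numbers in cells count the targets, and empty cells are 0. The pre-initiation complex row holds 15 targets at STE2, STE6, MFA1, MFA2 and BAR1, 13 at AGA2, 1 at ASG7 and 0 at the 4 alpha-specific genes; the TBP regulator row counts Ncb2 and Ydr1, which are names of the same gene, separately.

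The pre-initiation complex was present at the 6 promoters that had Mcm1. Of 17 targets of this class, 15 lay within STE2, STE6, MFA1, MFA2 and BAR1, and 13 at AGA2, where Spt15 and the TFIIA subunit TOA1 were missing. At least 15 of 17 was reached by 16.6% of all promoters and at least 13 by 28.2%, and the median was 8. The remaining Tfb6 and Tfg2 lists, of 9 and 16 peaks, lay at 2 and 6 of all promoters. The 4 alpha-specific promoters had 0 of 17. ASG7 had 1 of 17, Sua7, which lay at 87.1% of all promoters; its peaks were at -52 (score 511, rank 6392 of 7062) and -57 (score 110, rank 5191 of 5626), and the third Sua7 library had none.

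Sua7, the TFIIB that marks where polymerase is placed, lay within 150 bp of the coding start in all 3 libraries at the other 6 promoters. Its mean position was -86.3 ± 4.7 at STE2, -69.3 ± 4.0 at STE6 and -58.0 ± 3.6 at MFA1 (SD, n = 3 libraries). It was -74.5 ± 7.4 at MFA2, -89.7 ± 5.7 at BAR1 and -90.3 ± 10.7 at AGA2. Sua7 therefore stood nearest the coding start at MFA1, and at about equal distance at STE2, BAR1 and AGA2, whose means differed by less than the SD at AGA2. The spacing from Mcm1 down to Sua7 was 127.2 bp at STE2 and 127.7 bp at STE6, 159.3 bp at BAR1 and 161.0 bp at MFA1, 193.7 bp at AGA2 and 227.0 bp at MFA2. STE2 and STE6, and likewise BAR1 and MFA1, thus had nearly the same spacing, and these pairs, AGA2 and MFA2 differed from one another by more than the SD of Sua7 at any promoter.

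Within the core promoter the factors differed in their median place along the DNA. Relative to Sua7, the median over the members was -36.7 bp for Bur6, a subunit of the TBP regulator NC2, over 5 promoters, and -18.2 bp for Spt15 over 5. The TFIIE subunits TFA1 and Tfa2 were at -3.6 and -1.8 bp over 6. RNA polymerase II phosphorylated at serine 5 of its C-terminal repeat lay at 6.0 bp over 6, the TFIIH kinase module subunit Tfb3 at 8.0 bp over 6, and the coactivator Sub1 at 14.7 bp over 4. Over all promoters with both factors the medians were -30.7 bp for Bur6, -8.7 bp for Spt15, -0.5 bp for TFA1, -0.3 bp for Tfa2, 7.2 bp for the serine 5 form, 2.5 bp for Tfb3 and 11 bp for Sub1. In both sets the medians of Bur6, Spt15 and Sub1 came in this order. The medians of Tfb3 and the serine 5 form changed places, but their ranges over the members overlapped, from 0.3 to 10.3 bp and from 2.8 to 16.3 bp. At single members Bur6 ranged from -45.2 to 2.8 bp, Spt15 from -22.1 to -5.9 bp and Sub1 from 7.1 to 19.8 bp, so the ranges of Bur6 and Spt15 overlapped. The Spt15 median at the members lay beyond the lower quartile over all promoters, -15.7 bp.

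Other targets shared by 6 of 7 promoters were common elsewhere as well. The serine 5 and serine 7 forms of the polymerase repeat lay at 6 of 7, against 16.4% and 16.5% of all promoters, and the TFIIH subunits Ccl1 and Tfb1 at 6 of 7, against 20% and 31.7%. The TFIIH subunits Tfb2, Tfb3, Ssl1 and Kin28 followed at 36.9%, 43.8%, 48.2% and 52.5%, and Rad3, Ssl2 and Tfb4 at 54.5%, 64.8% and 72.1%. The capping enzyme Cet1 lay at 54.5%, the TFIIF subunit Tfg1 at 66.6%, and the TFIIE subunits TFA1 and Tfa2 at 64.1% and 75.6%. Mcm1, at 7.83%, was the least widespread of the targets found at 6 or 7. At 5 of 7 were Sub1 (19.3% of all promoters), Bur6 (26.8%), Spt15 (30.5%) and TOA1 (33.2%). TAFs found only in TFIID, the complex that carries TBP to many promoters, lay at STE2, STE6, MFA1 and MFA2, with 2 at MFA1 and 3 at each of the others, of 8, and at none of BAR1, ASG7 and AGA2. At least 2 were seen at 15.7% of all promoters and at least 3 at 10.4%, and of the 3 at STE6 1, Taf4 at -480, lay on the neighbouring tRNA gene. Each of these TAF peaks came from 1 library of a target with 2 or 3 libraries, with scores from 78 to 165, so the differences between promoters have no replicate check. Mediator and the remodeller SWI/SNF lay at STE6 and MFA2 only, and at STE6 their peaks were on or next to a neighbouring tRNA gene, described further down.

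MFA2 stood apart by a dense stretch between -400 and -150, with 79 peaks of 54 targets, of which 22 were found in at least 2 libraries. Its peaks had a median of -273 and a middle 50% from -293 to -259, so they lay just downstream of the Mcm1 position of -302 and -301. The other promoters had from 0 at ASG7 to 9 targets at MFA1 in that stretch. At MFA2 it held 13 of 24 Mediator targets, among them Med2, Pgd1 and Gal11 of the tail and Med6 and Srb4 of the head (Med20 and Srb2, names of the same gene, are counted separately among the 24); at least 13 were seen at 1.68% of all promoters. SWI/SNF had 5 of 8 targets there, Snf2, Snf6, Snf11, Swi1 and Swi3, a number reached by 2.08% of all promoters, and SAGA, a histone acetyltransferase complex, had 6 of 13, against 5.65% of all promoters with at least 6.

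Sequence-specific factors not tied to mating type also lay in the MFA2 stretch. Sok2, a regulator of pseudohyphal growth, was at -273 and -286 with the top score in both libraries, and its relative Phd1 at -278 in 1 library, also with the top score. Sfl1, a repressor of flocculation genes, was at -257 and -287. The glucose repressors Mig1 and Mig2 had peaks at -283 for Mig1 and at -304 and -286 for Mig2. These factors lay at 6.73%, 4.82%, 2.87%, 4.60% and 5.28% of all promoters, in the order Sok2, Phd1, Sfl1, Mig1 and Mig2. The promoters that shared most targets with MFA2 were TEC1, with a Jaccard index of 0.640 over targets (57 shared), SFG1 with 0.616 and ROX1 with 0.598. None of these is a-specific; TEC1 and SFG1 encode regulators of filamentous growth, and ROX1 a repressor of hypoxic genes.

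**Figure D4:**
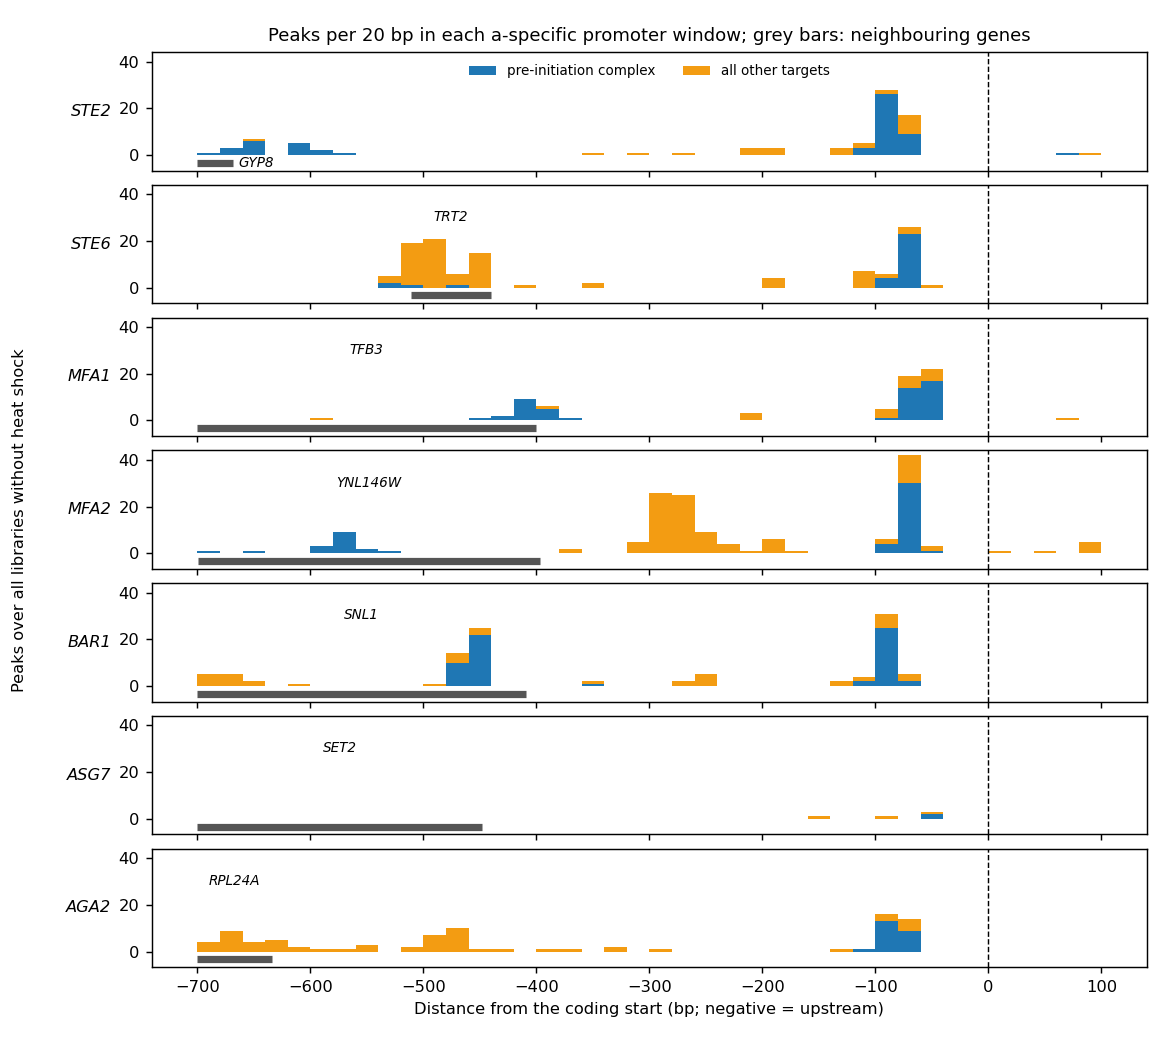
Peaks per 20 bp in the windows of the 7 a-specific promoters, over all libraries without heat shock, for pre-initiation complex targets (blue) and all other targets (orange); the dashed line is the coding start and grey bars are neighbouring genes. Every promoter but ASG7 has a blue cluster between -116 and -44, MFA2 alone has a dense orange stretch around -273, STE6 has orange peaks over the tRNA gene TRT2, and BAR1 has a second blue cluster inside the end of SNL1.

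The far part of the STE6 window covered the tRNA gene TRT2, from -511 to -440. Between -536 and -418 lay 67 peaks of 45 targets. They included 9 RNA polymerase III subunits, with 18 peaks from -510 to -480, and 7 subunits of the factors TFIIIB and TFIIIC, with 14 peaks from -504 to -458. The further Mcm1 peak of STE6 at -455 and the Yox1 peak at -418 also fell there, as did Rap1 at -454. With the window cut to 300 bp upstream, STE6 kept 26 of 68 targets.

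AGA2 was similar in that its numerous targets lay far upstream, where RPL24A, a ribosomal protein gene on the same strand, ends at -634. From -693 to -437 there were 50 peaks of 34 targets. Splicing factors came first, with the targets Prp4, Prp45, Prp46, Lea1, Mud1 and Smd1 between -682 and -554, and cleavage and termination factors followed, with Ysh1 at -484 and -482, Pap1 at -486 and Rna14 at -437 and -466. All 7 RNA polymerase II subunit targets lay in this stretch. Only Mcm1, Ste12 and Dig1 lay between -400 and -150, and 18 targets lay nearer the coding start. With 300 bp upstream, AGA2 kept 19 of 55 targets.

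At BAR1 a second pre-initiation complex lay inside the last part of SNL1, a gene on the same strand that ends at -409. All 15 targets found at the BAR1 core were there too, with 32 peaks from -472 to -447, a median of -456.5 and an SD of 6.8 bp. The core cluster of BAR1 had 29 peaks of 15 targets with a median of -90.0 and an SD of 9.4 bp. The 2 clusters therefore held the same number of targets. As bounded at 360 bp upstream, neither was wider, by its SD, than the core cluster of STE2 (11.2 bp). That bound left out a Sua7 peak of replicate 2 at -359 (score 1000), which the SD of 6.8 bp does not count. Which transcript the upstream cluster serves was not tested. Mcm1, Ste12 and Dig1 lay between the 2 clusters, as did the Sua7 peak at -359 and Bur6 peaks at -358 (replicate 3) and -274 (replicate 2). Further inside SNL1, from -699 to -657, lay the polymerase II subunits Rpb2, Rpb3, Rpb7, Rpb9 and RPB11. The elongation factors Leo1, Paf1, Pob3 and Spt4 lay there too. With 300 bp upstream, BAR1 kept 25 of 34 targets.

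Similar clusters of fewer targets stood upstream of 3 other members. MFA1 had 11 pre-initiation complex targets from -447 to -379, around the end of TFB3 at -400. MFA2 had 10 from -697 to -531, inside the small open reading frame YNL146W, which spans -699 to -397. STE2 had 10 from -694 to -574, next to the start of the divergent gene GYP8 at -668. Their SDs were 16.4, 39.6 and 32.3 bp, against 6.8 bp at BAR1 without its Sua7 peak at -359. STE6 had 2 such targets upstream, and ASG7 and AGA2 had none.

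ASG7 had only 4 targets, all near the coding start: Sua7 in 2 libraries, the cleavage factors Pcf11 at -143 and Rna14 at -95, and Sum1, a repressor of sporulation genes, at -59 with a score of 129. The upstream gene SET2, on the same strand, ends at -448. Fewer targets were found at 15.3% of all promoters. ASG7 thus resembled the alpha-specific promoters in number. Of those, STE3 had Rap1 at -382 in 3 libraries and MF(ALPHA)2 had Reb1 at -696 and -697, both general regulatory factors. ASG7 shared 3 of its 4 targets with AGA2 and 1, Sua7, with each other member. At AGA2 the shared Pcf11 (-441) and Rna14 (-437 and -466) lay far upstream, past the end of RPL24A.

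Among the other members the overlap was closest for STE2 and MFA1, which shared 24 targets of 32 and 28, a Jaccard index of 0.667. STE2 and BAR1 shared 24 (0.571), and MFA1 and BAR1 shared 23 (0.590). STE2 was as like TPO3, a polyamine transporter gene that is not a-specific, at 0.667 as it was like MFA1. MFA1 was most like DIC1, a mitochondrial carrier gene, at 0.828, and BAR1 most like TPO3 at 0.676, followed by SST2 of the pheromone pathway at 0.659. STE6 was most like SGT2, a chaperone cofactor gene, at 0.729. This index covers the whole window, and 45 of the 68 STE6 targets had a peak over or next to TRT2.

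The coding sequences gave a view that did not use the promoter windows, except for the first 100 bp that both share. Of 24 targets of RNA polymerase II and elongation factors, STE2 had 22 in its coding sequence, BAR1 17 and STE6 13. At least 22 was reached by 3.37% of all coding sequences, at least 17 by 6.05% and at least 13 by 8.53%, while 75.2% had none. AGA2 and MFA2 had 3 each and MFA1 had 2. At least 3 was reached by 17.6% of all coding sequences and at least 2 by 19.9%. The coding sequences of AGA2, MFA2 and MFA1 are short, at 264, 117 and 111 bp, against 1296 bp at STE2, 1764 bp at BAR1 and 3873 bp at STE6. ASG7, of 630 bp, had 0, and so had the 4 alpha-specific genes, whose lengths ran from 363 to 1953 bp. The lengths of STE2 and BAR1 fall within the alpha-specific range, and whether length bears on these counts was not tested.

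**Figure D5:**
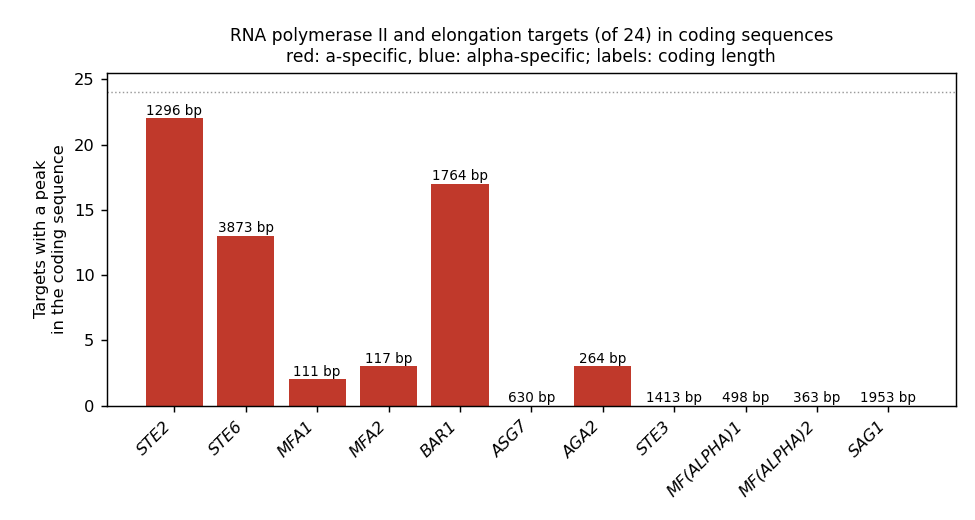
Number of RNA polymerase II and elongation targets (of 24, dotted line) with a peak inside the coding sequence of each a-specific gene (red) and alpha-specific gene (blue), with the coding length in bp above each bar. STE2, BAR1 and STE6 stand at 22, 17 and 13, the short genes MFA1, MFA2 and AGA2 at 2 or 3, and ASG7 and all alpha-specific genes at 0.

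Heat shock was compared over 16 pairs of target and antibody, with 22 libraries from heat-shocked cells and 32 from cells without heat shock. For each promoter and pair, the share of libraries with a peak was taken under each condition. No promoter of 6002 passed an exact two-sided sign-flip permutation test after Benjamini-Hochberg adjustment (0 called, 0% of promoters; 190 had an unadjusted p under 0.05), and all 7 a-specific promoters had an adjusted p of 1. At most 4 of 16 pairs differed at a member (MFA2), where the smallest exact permutation p that could be reached was 0.125, and at most 12 differed at any promoter. The test could thus not have called a member, and it says nothing about whether heat shock changed these promoters. The mean share of libraries was 3.13% with heat shock and 12.5% without at STE2, 12.5% under both conditions at STE6, and 12.5% with heat shock and 15.6% without at MFA2. It was 0% with heat shock at MFA1, BAR1, AGA2 and ASG7, against 6.25%, 12.5%, 6.25% and 0% without. Fewer peaks with heat shock at STE2 came from 2 of 16 pairs, against 1 that went the other way.

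The pair that covered most members was Spt15, with 1 library after 3 min of heat shock and 2 without. After heat shock its only a-specific peak was at -537 of STE6, just upstream of TRT2. Without heat shock both libraries had core peaks at STE2, STE6, MFA1, MFA2 and BAR1, in addition to -530 and -536 of STE6, just upstream of TRT2. The heat-shocked library had 1140 peaks, against 1808 and 1337 without heat shock, and with 1 library this difference has no replicate check. At MFA2 the SAGA subunit Spt7 had peaks at -272, -289 and -174 in its 2 heat-shocked libraries, and at -283 and -238 in 2 of the 3 without.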

How the data were processed

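A deposited list gives 1 library's peaks, each a 1 bp row with ChExMix as its name. BWA, Picard and SAMtools and the sacCer3 build are named in the submitters' processing notes, without versions. The deposited score is a whole number from 66 to 1000 whose definition the authors do not give in the labels; as 23.8% of peaks stand at 1000, it was used only to rank peaks within a list. No control or threshold is named in the sources used here. The second coordinate of a peak was taken as its 1-based position.

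Genes came from a RefSeq table of assembly R64, with strand read from the systematic name, and distances count from the first coding base as 0. A target was placed at a promoter where any of its libraries had a peak between 700 bp before and 100 bp after that base. The zones within 150 bp and 400 bp, and the bound of 360 bp for upstream clusters, were set after seeing the peaks. The members, gene lists, target classes and tests were chosen with earlier results of these data known. Targets are named where they belong to the fixed regulator or core classes, lie at 4 or more members, or are among the 5 least widespread at a member; Hos2, Mud1, Smd1, the cleavage factors, Rap1, Reb1 and the sequence-specific factors at MFA2 were named after their values were seen. Likeness is the Jaccard index over targets.

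Heat shock was tested by an exact sign-flip permutation test over 16 pairs, whose smallest possible p is 3.05e-05, adjusted by Benjamini-Hochberg over 6002 promoters at 0.05; the script was tested on simulated data. Nothing else was tested. Python 3.11.15, numpy 2.4.6, pandas 2.3.3, scipy 1.17.1 and matplotlib 3.10.9 were used. Genome sequence was not used here, so no sequence is shown. Alternatives changed the window, the score limit, labels that name the same gene, the number of libraries, the least list size, the tag (TAP only) and the replicates.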

Additional observations from a re-analysis of the deposited data

Results flagged for a closer look

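A sample whose title names Abf1 and whose source name names Mot1 entered no group and no comparison. Its list held 1239 peaks, of which 2 lay at a-specific promoters, at -64 of MFA2 and at -469 of STE6. The first lay among the core factors of MFA2, where the Mot1 library had a peak at -89, and the second on the tRNA gene TRT2. There were no control lists to set them against, and the share of all promoters with a peak of this list is not given here. The list was chosen for notice because it was used nowhere else.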

How the results depend on the processing

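The number of a-specific promoters with an Mcm1 peak was 6 and stayed between 5 and 6 under every alternative run, the 5 at 300 bp upstream included. The number with Matalpha2 was 2, and became 0 with peaks in the top 50% of their list by score and 0 with peaks in at least 2 libraries of a target; leaving out replicates gave 0 to 2, with 0 without replicate 2. The 152 distinct targets became 92 with a window of 300 bp upstream, 74 in at least 2 libraries of a target, 112 to 124 when a replicate number was left out, and 151 with names of the same gene counted as 1 target, which was tried only once the data had been seen. The median of 34 targets per promoter became 21 in at least 2 libraries, and 30 to 32 without a replicate. It was 26 at 300 bp upstream and 49 at 1000 bp, 24 in the top 50% by score and 29 with TAP-tag libraries only. The median over all promoters was not recomputed under these alternatives. The Matalpha2 to Mcm1 distance, 32.5 bp over 2 promoters, ranged from 32.5 to 33 and had no value without Matalpha2 replicate 2 or in the top 50%. The count of promoters called with heat shock was 0 in each alternative too. As at most 4 of 16 pairs differed at a member and at most 12 at any promoter, this is no sign of stability. Of single promoters, AGA2 had 36 and ASG7 1 target without replicate 1, and ASG7 had 0 in the top 50%. Beyond the match by target and antibody that the heat shock test itself uses, no paired analysis was possible because no such pair shares a replicate number between conditions (0 of 16), and the other results come from no test. Depth is not known, so absence of a peak bounds nothing.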

Other observations

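Matalpha2 peaks outside the windows of the a-specific and pathway genes are given here as values. High scores in both libraries there were 504 and 1000 between ICS2 and AMN1 on chromosome II at 555415, 450 and 1000 at -375 and -376 of the ribosomal protein gene RPL36B, and 327 and 1000 at 50 and 48 of YLR112W. NEJ1, which encodes a regulator of end joining that haploids express, had peaks at -142 and -141, with scores of 387 and 1000. AXL1, a protease gene of a-factor maturation and axial budding, had 1 at -140, and RDH54, a recombination gene, had 1 at -97, both in replicate 2. On chromosome III, between KAR4 and RDT1, lay a peak at 29242 in replicate 1 and at 29217 in replicate 2, 17 and 8 bp from Mcm1. Of the 13 replicate 1 peaks, 12 had a replicate 2 peak within 100 bp. Repeated stretches, the CUP1 genes and the rRNA genes, held 3 of 13 and 12 of 28 peaks. Over all 41 Matalpha2 peaks, 12 lay within 50 bp of an Mcm1 peak, and 6 of these 12 were in the CUP1 or rRNA stretches.

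The 18 MNase-ChIP-seq lists, of 5 to 5089 peaks, had 0 peaks at the 7 a-specific promoters. The share of all promoters with a peak in these lists is not given here, so this count does not set the 7 apart from other promoters.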
